A study of Rattus norvegicus with 30 samples.

Results

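Rat inner medullary collecting duct cells in primary culture were moved from medium of 300 mosmol/kg to medium of 600 mosmol/kg, and the change in their transcriptome between 3 h and 12 h after that step is described here. The members were the 3 arrays labelled as challenged for 3 h and the 3 labelled as challenged for 12 h, 6 of the 30 arrays in the study, chosen by their titles alone. The 3 arrays of cells kept at 300 mosmol/kg (steady 300) served as the level before the step. The study also held arrays at 24 h and 48 h after the same step and of cells kept at 600 mosmol/kg (steady 600), which are used only to show where genes stood later. Every sample's treatment note gives 5 µM cyclosporin A, which blocks calcineurin, but the titles leave it out, and it is not known which of the cultures had the drug. The labels list no culture left at 300 mosmol/kg for 12 h beside the challenged ones, so time in culture and time at 600 mosmol/kg cannot be told apart. Whether replicates were separate cultures or animals is not stated. The p-values therefore reflect only the scatter of arrays within groups, part of which may be technical. That scatter was pooled over the groups of all 30 arrays and is not that of the compared groups alone. The median standard deviation of a gene was 0.155 at 3 h, 0.108 at 12 h and 0.0751 in steady 300, against 0.131 in the fit.

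The inner medulla is the part of the kidney where urine is concentrated, and its cells live in fluid of high and changing osmolality. A step to higher osmolality draws water out of the cell and raises the concentration of ions inside it. Cells answer first with stress signalling and ion uptake, and then replace the ions with compatible osmolytes such as sorbitol, myo-inositol, betaine and taurine, through transporters and enzymes whose genes are switched on in large part by the transcription factor NFAT5. Chaperones that guard proteins against crowding and salt accompany that slower phase.

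Between 3 h and 12 h most immediate early genes fell back toward their former levels, while Akr1b1, Hspa4l and Slc12a2 went on rising and Slc6a6, Slc38a4 and Stk39 rose without an early call. Of the transcripts lowered at 3 h, 54.7% rose again, among them a large group of zinc-finger genes. A separate set had no call at 3 h and fell by 12 h, including Esrp1, Slc2a1 and Psmb9. Values are log2 expression values of the array, so a difference of 1 is a 2-fold change; they are given per array, and log2 changes carry the standard error (SE) of the fit, with n = 3 arrays per group. The level of 1 gene is not compared with that of another.

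All 6 arrays had their nearest neighbour in their own group. Replicate 3 at 3 h stood apart from its partners, with a median absolute difference of 0.205 and 0.198 from replicates 1 and 2, against 0.122 between those. At 12 h the same measure ran from 0.115 to 0.137. The epithelial adhesion protein gene Cdh1 had a mean of 11.10 in steady 300. Aqp2, the vasopressin-regulated water channel that defines principal cells, had a mean of 5.61 in steady 300 and 10.07 in steady 600. The macrophage lysozyme gene Lyz2 had a mean of 11.42 in steady 300, and the fibroblast collagen gene Col3a1 read 10.01 on its replicate 2. The share of other cell types in the cultures was not measured. In such bulk samples fewer cells of a type and less RNA per cell cannot be told apart.

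From 3 h to 12 h, 3352 genes rose (23.1% of the 14506 tested) and 2587 fell (17.8%) at an adjusted p under 0.05. At least 2-fold changes were found for 200 rising genes (1.38%) and 164 falling genes (1.13%). The median size of a called change was 0.46 on the log2 scale and the smallest was 0.15. For 5184 of the 5939 called genes (87.3%) no array at 12 h overlapped an array at 3 h. The same held for 440 of 5666 genes with no call here or against steady 300 at either time. Calls and overlap were read on the same arrays, so the 87.3% is not separate support. Without replicate 3 at 3 h, 3576 genes rose and 2371 fell. The balance of rising and falling genes moved with the scaling of the arrays. Of the called genes, 56.4% rose in the deposited values and 45.1% after cyclic loess scaling. Direction followed brightness too: with genes ranked by mean level and cut into 3 equal groups, 69.0% of the called genes rose in the brightest group and 26.6% in the dimmest. The part of scaling and signal range in the overall balance was not tested. For named genes below, only the change from 3 h to 12 h was read again under other scalings. Their standing against steady 300 is given as deposited.

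To follow each gene, the change from 3 h to 12 h was read beside the early change, 3 h against steady 300, and the standing at 12 h against steady 300. These comparisons share arrays, so the class counts that follow are a description and not separate tests. At 3 h, 1759 genes were higher than in steady 300 (12.1%) and 4282 were lower (29.5%). At 12 h, 1729 were higher (11.9%) and 3282 were lower (22.6%). The share of called genes that were higher at 3 h was 29.1% as deposited, 49.6% after quantile normalization, 63.4% after median centring and 47.9% after cyclic loess. At 12 h the same share was 34.5%, 51.4%, 70.1% and 42.5%. Median centring moved the median gene to 0.13 at 3 h and 0.16 at 12 h above steady 300.

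Of the 1759 early increases, 782 (44.5%) fell again by 12 h. Among them 570 were no longer called against steady 300 and are called faded, 77 were still higher (partly faded), and 135 had dropped below steady 300 (turned over). A further 370 held their level, and 82 grew. Of the 4282 early decreases, 2343 (54.7%) rose again: 1707 faded, 304 faded in part and 332 turned over to stand above steady 300. Another 1102 held, and 476 grew deeper. The remaining 525 early increases and 361 early decreases showed no called change after 3 h and no call at 12 h. Genes without an early call gave 612 new increases and 978 new decreases.

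**Figure D1:**
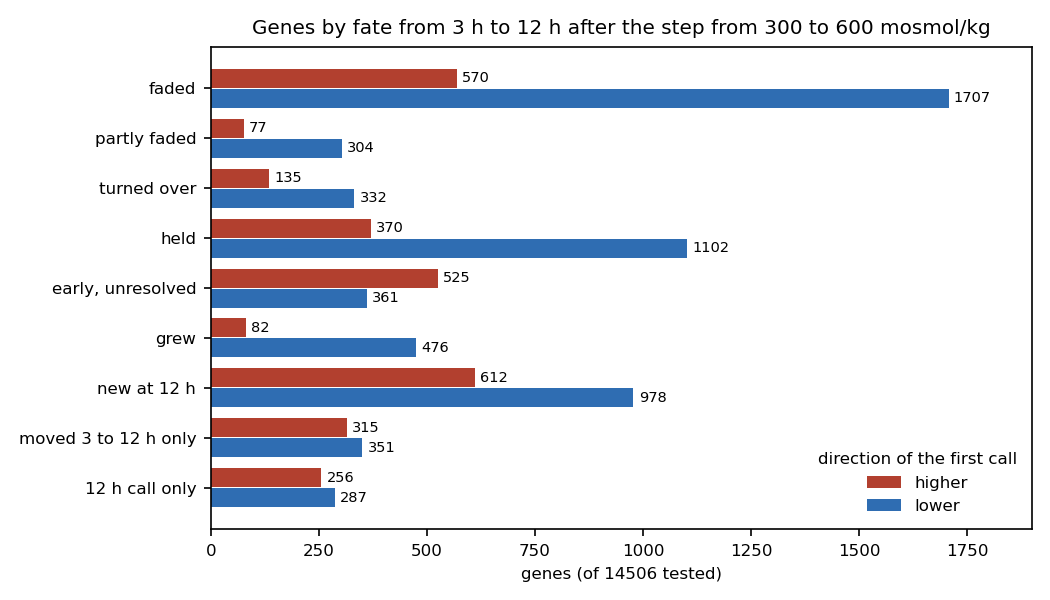
Number of genes (x axis, of 14506 tested) in each class of behaviour from 3 h to 12 h after the step from 300 to 600 mosmol/kg, in the values as deposited, with red bars for genes whose first call was higher and blue bars for genes whose first call was lower. Faded decreases (1707) were the largest class and held decreases (1102) the next, and new decreases (978) outnumbered new increases (612); after median centring held increases (1847) were the largest class of called genes and new increases (1196) outnumbered new decreases (786).

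How far the large early changes had faded can be read from the genes that were at least 2-fold changed at 3 h. These were chosen on the 3 h arrays, which enter the later change with the opposite sign, so part of the apparent return comes with the choice. Among 66 such increases the median difference from steady 300 went from 1.21 at 3 h to 0.60 at 12 h, and 20 were still at least 2-fold higher. Among 214 such decreases the median went from −1.18 to −0.39, and 44 were still at least 2-fold lower. Large increases mostly faded in part (35 of 66, with 13 faded). Large decreases were split between fading (83) and fading in part (75), and 39 held. Later, at 24 h, the new increases stood at a median of 0.25 against 0.42 at 12 h, and the new decreases at −0.20 against −0.50, levels chosen on the 12 h arrays. The genes that grew higher were chosen by a further rise at 12 h, so their distance at 12 h follows largely from the rule. They stood furthest from steady 300, at 0.95, 0.72 and 0.55 at 12 h, 24 h and 48 h.

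Immediate early genes, which encode transcription factors and feedback regulators switched on within minutes of a stimulus, mostly fell back after 3 h. Of 29 measured, 24 were higher at 3 h than in steady 300. From 3 h to 12 h, 21 fell (72.4%) and 1 rose (3.4%), with a median change of −0.47, against −0.002 over all genes tested. For this and the later lists, the shares of all genes tested were 23.1% rising and 17.8% falling. Of these 29, 10 had faded, 7 had faded in part, 5 had held and 1 grew higher. Another 3 had no early call and were new decreases. Without replicate 3 at 3 h, 18 fell and 2 rose with a median of −0.34.

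Among the AP-1 family, Junb, a partner of FOS proteins, read 9.77, 9.70 and 9.79 in steady 300, 10.57, 10.57 and 10.73 at 3 h and 9.40, 9.68 and 9.57 at 12 h. All arrays at 3 h lay above both other groups, and the 12 h change was −1.08 ± 0.09 (2.11-fold lower, adjusted p = 1.23e-10). Atf3, a stress-induced transcriptional repressor, went from 8.94, 8.91 and 8.95 to 9.84, 9.73 and 9.78 and back to 8.79, 8.71 and 8.84. Its return (−1.001 ± 0.07, adjusted p = 1.62e-11) left no called difference from steady 300. Fos fell by 0.39 ± 0.11 and Myc, a growth-promoting transcription factor, by 0.78 ± 0.09, and both had faded. Rrad, a small GTPase that restrains calcium channels, had one of the largest early rises, from 6.22, 5.89 and 5.84 to 9.36, 9.31 and 8.95. At 12 h it read 7.93, 8.15 and 8.003, lower by 1.18 ± 0.11 yet still 4.12-fold above steady 300.

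Csrnp1, a cysteine- and serine-rich nuclear transcription factor, read 6.77, 6.50 and 6.48, then 8.73, 8.57 and 8.80, then 7.40, 7.32 and 7.38. The groups did not overlap, and the gene had faded in part (−1.34 ± 0.11, adjusted p = 1.97e-10). Egr1, a zinc-finger factor at the head of many growth responses, read 7.79, 8.04 and 7.78, then 9.93, 10.13 and 11.17, then 9.14, 9.21 and 9.62. Replicate 3 at 3 h was the high one here, and the fall of 1.09 ± 0.17 (adjusted p = 9.84e-06) became −0.71 without it. Not all early transcription factors went down. Klf4, a differentiation factor of epithelia, read 8.27, 8.29 and 8.27 at 3 h and 8.20, 8.15 and 8.52 at 12 h, a held increase. Its later change was not called at 0.01 and was −0.086 after quantile normalization, −0.096 after cyclic loess and −0.29 when its probe sets were averaged. Bcl6, a transcriptional repressor, also held, with 8.41, 8.37 and 8.44 at 3 h and 8.39, 8.39 and 8.36 at 12 h against 7.14, 7.02 and 6.85 in steady 300.

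Many immediate early genes are known targets of serum response factor, which binds a sequence called the CArG box. In the RefSeq promoter windows (GRCr8, 300 bases around the annotated start, most of them upstream), a CArG box on either strand, 1 of 9 motifs searched, was found in 6 of 18 immediate early genes with a window (33.3%), against 1.28% of 11950 measured genes and 1.64% of all 27457 windows. The cAMP response element TGACGTCA was found in 4 of the 18 (22.2%, against 2.46% of measured genes). The tonicity element TonE was searched only as the letters TGGAAA. These were found in 2 of 9 tonicity and osmolyte genes (22.2%, against 19.5% of measured genes). Letters this common cannot tell a TonE from other matches, and Akr1b1 and Nfat5 were not among the 9. The sterol element TCACNCCAC was found in 0 of 15 cholesterol genes (against 1.08%). By class, a CArG box was found in 6 of 467 faded increases with a window (1.28%) and 2 of 58 partly faded increases (3.45%). The share among faded increases thus equalled that of measured genes. A match describes the letters and is neither a bound site nor a cause. Shown are the windows of Zfp36, an RNA-decay factor that fell by 0.77 ± 0.18 and faded, at chr1:92799059-92799358 on the minus strand, and of Dusp5, a phosphatase of ERK that fell by 0.30 ± 0.10 and faded in part, at chr1:262543524-262543823 on the plus strand. Capitals mark the CArG boxes, 1 in Zfp36 and 2 adjoining in Dusp5.
Zfp36: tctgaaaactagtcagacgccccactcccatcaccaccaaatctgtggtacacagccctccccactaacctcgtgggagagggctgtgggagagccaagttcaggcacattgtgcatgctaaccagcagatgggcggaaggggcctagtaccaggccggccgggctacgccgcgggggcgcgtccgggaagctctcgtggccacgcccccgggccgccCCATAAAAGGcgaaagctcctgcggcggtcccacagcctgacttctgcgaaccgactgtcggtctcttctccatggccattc
Dusp5: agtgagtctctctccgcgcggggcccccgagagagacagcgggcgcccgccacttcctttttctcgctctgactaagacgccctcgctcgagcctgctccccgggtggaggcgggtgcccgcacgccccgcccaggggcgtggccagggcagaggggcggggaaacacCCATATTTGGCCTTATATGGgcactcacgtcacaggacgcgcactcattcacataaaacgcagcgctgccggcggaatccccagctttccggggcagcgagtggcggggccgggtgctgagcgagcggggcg

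Other early increases that faded were signalling genes. Il11, a cytokine of the interleukin 6 family, read 8.64, 8.60 and 8.75 in steady 300, 9.97, 9.94 and 10.07 at 3 h and 8.52, 8.45 and 8.46 at 12 h. The 3 h arrays lay more than 1 log2 unit above those of steady 300 and 12 h, and the fall was −1.52 ± 0.08 (2.87-fold, adjusted p = 1.93e-14). Notch3, a receptor of the Notch pathway, fell by 1.35 ± 0.15 from 8.84, 8.94 and 9.41 to 7.61, 7.72 and 7.80. Zbtb2, a transcriptional regulator, fell by 1.38 ± 0.11 from 8.51, 8.52 and 9.09 to 7.16, 7.50 and 7.32. Pygm, the glycogen phosphorylase of muscle, had risen 6.41-fold at 3 h, from 4.19, 4.08 and 4.05 to 6.66, 6.82 and 6.89. It then fell to 4.95, 5.24 and 5.16 (−1.67 ± 0.10, adjusted p = 1.26e-13), and at 24 h its mean was 4.39. Sertad1, a cell-cycle regulator, fell by 1.42 ± 0.15 and also remained above steady 300 at 12 h.

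**Figure D2:**
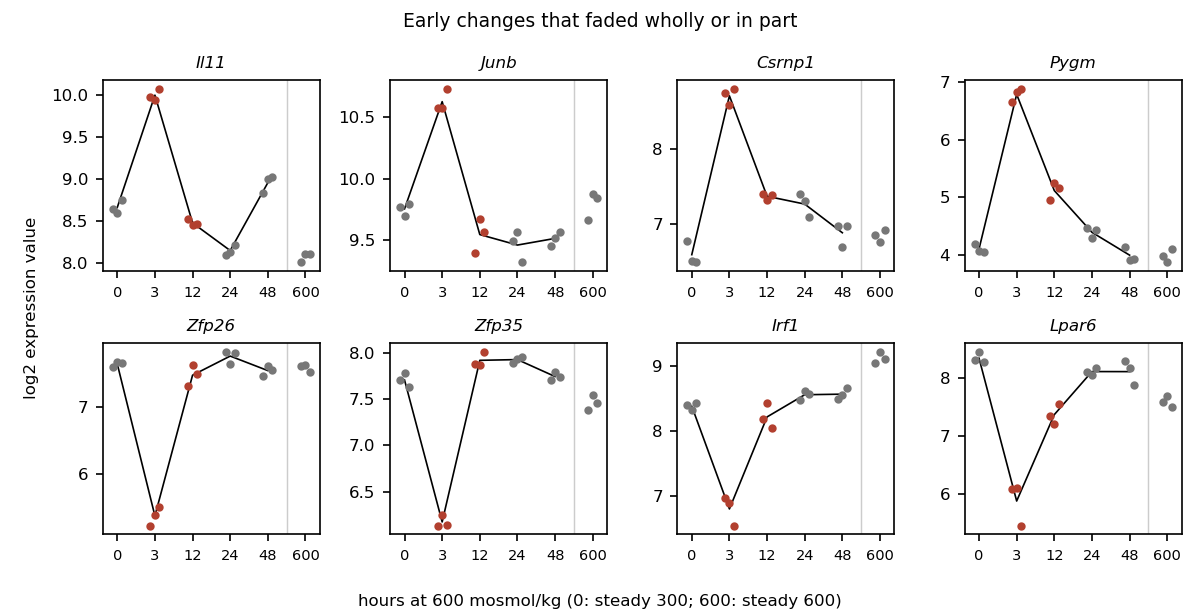
Log2 expression value (y axis, own range in each panel) of 8 genes whose early change faded wholly or in part, by hours at 600 mosmol/kg, with 0 for steady 300 and 600 for steady 600; points are single arrays, red for 3 h and 12 h, and the line joins group means. Il11, Junb, Csrnp1 and Pygm peak at 3 h, and Zfp26, Zfp35, Irf1 and Lpar6 dip there, Zfp26 to 5.22 on its lowest array against 7.31 at 12 h.

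Many zinc-finger genes were among the faded decreases. Zinc-finger proteins hold zinc in small folds that bind DNA or RNA, and many of them repress transcription. The group was taken by symbol, Zfp or Znf followed by a number alone, so it mixes kinds of zinc finger: it includes Zfp36, whose fingers bind RNA. Among these 137 measured genes, 81 (59.1%) were lower at 3 h than in steady 300, against 29.5% of all genes tested. Of these 81, 70 rose again by 12 h, and of all early decreases 54.7% did. The 81 were chosen on the 3 h arrays, which enter the later change with the opposite sign. Part of that return therefore comes with the choice. Over the whole group 83 rose (60.6%, against 23.1% of all genes) and 6 fell (4.4%, against 17.8%), with a median change of 0.43. After cyclic loess 81 rose and 7 fell, with a median of 0.36. The median difference from steady 300 was −0.40 at 3 h, −0.02 at 12 h, 0.08 at 24 h and 0.04 at 48 h. At least 2-fold decreases numbered 22 at 3 h and 0 at 12 h. The group's median level in steady 300 (6.74) equalled that of all genes (6.74). Members of the group can resemble each other in sequence, and how far their probes share signal was not tested.

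Zfp26 read 7.60, 7.69 and 7.66 in steady 300, 5.22, 5.38 and 5.51 at 3 h and 7.31, 7.63 and 7.502 at 12 h. It had been 4.86-fold lower at 3 h, and the rise of 2.11 ± 0.11 (adjusted p = 1.05e-14) removed the called difference. Zfp35 went from 7.71, 7.79 and 7.63 to 6.13, 6.25 and 6.13 and then to 7.88, 7.88 and 8.02 (1.75 ± 0.10). Zfp329 and Zfp2 rose by 1.76 ± 0.16 and 1.72 ± 0.14. Recovery was incomplete for Zfp867, which read 6.93, 7.01 and 6.66, then 4.86, 4.63 and 4.77, then 5.82, 6.14 and 6.20. In Zfp347 it overshot: 6.50, 6.43 and 6.25 became 5.49, 5.35 and 5.61 and then 7.19, 7.43 and 7.64, above every array of steady 300.

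**Figure D3:**
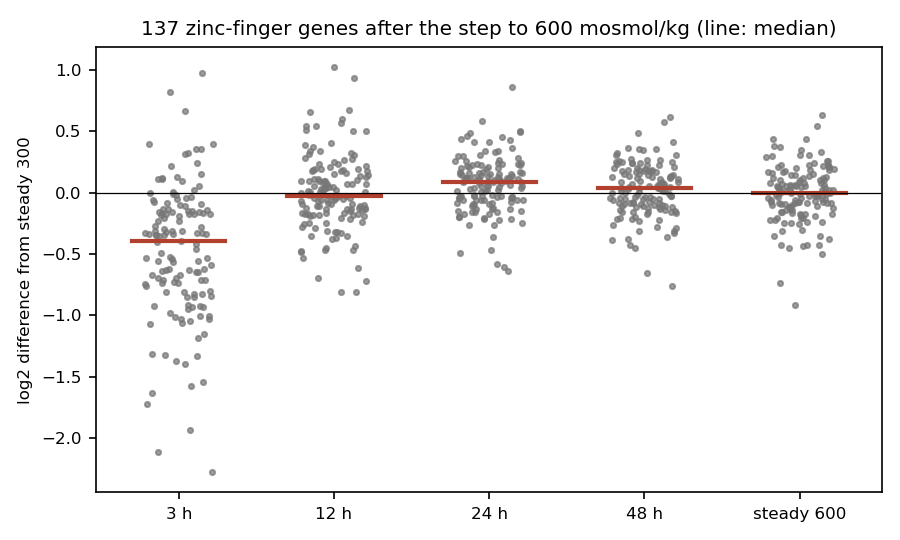
Difference of group means from steady 300 (y axis, log2) for 137 zinc-finger genes at 3, 12, 24 and 48 h after the step and in steady 600; each point is a gene and the red bar the median. At 3 h the median is −0.40 with 22 genes at least 2-fold lower, and at 12 h it is −0.02 with 0 such genes.

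Other decreases recovered alongside them. Irf1, a transcription factor of interferon responses, read 8.40, 8.32 and 8.43, then 6.97, 6.88 and 6.54, then 8.18, 8.44 and 8.04, a rise of 1.42 ± 0.10 (adjusted p = 6.82e-12) that left no called difference from steady 300. Lpar6, a receptor for lysophosphatidic acid, had lost 5.47-fold by 3 h and regained 2.80-fold, reading 6.09, 6.10 and 5.46 at 3 h and 7.34, 7.21 and 7.56 at 12 h. Ribosome biogenesis genes, whose products make and process ribosomal RNA, rose in 16 of 28 and fell in 0, with a median change of 0.29. After cyclic loess 12 rose and 2 fell, with a median of 0.13. Of the 28, 9 had faded from a decrease and 5 were new increases. Polr1b, a subunit of RNA polymerase I, read 7.94, 7.91 and 7.96, then 7.20, 7.38 and 7.42, then 8.05, 8.41 and 8.41, ending above steady 300.

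Cell-cycle genes were divided. Of 26 G2/M and mitosis genes 23 were lower at 3 h, against 29.5% of all genes tested. From 3 h to 12 h 8 rose (30.8%) and 3 fell (11.5%), with a median change of 0.06. Over all genes tested 23.1% rose and 17.8% fell, so these later shares lay near the background. Of the 26, 7 had faded and 12 had held their decrease. Aurka, a spindle kinase, read 7.20, 7.18 and 7.19, then 6.55, 6.54 and 6.69, and was back at 7.17, 7.21 and 7.17 at 12 h. Its mean was 6.54 at 24 h, so that return was not kept. The cyclin gene Ccnb1 kept a log2 difference near its early −1.13, with a later change of 0.13 that was not called, and Ccna2 fell by a further 0.35. Of 27 DNA replication genes 12 rose and 2 fell (median 0.14). Cdc6, which loads the replicative helicase, was 1 of the 2 that fell, from 7.09, 7.01 and 7.12 to 6.06, 6.05 and 6.49, and it ended below steady 300.

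The osmolyte genes did not move together. Of 13 measured tonicity and osmolyte genes 11 were higher at 3 h than in steady 300 and 10 at 12 h. From 3 h to 12 h, however, 5 rose (38.5%, against 23.1% of all genes tested) and 4 fell (30.8%, against 17.8%). After cyclic loess the split was 3 and 5. The median change was 0.08 as deposited, −0.05 after quantile normalization and −0.10 after cyclic loess, so the list as a whole has no stable direction. Akr1b1, the aldose reductase that makes sorbitol from glucose, read 10.91, 10.87 and 11.01 in steady 300, 11.88, 11.79 and 11.68 at 3 h and 13.32, 13.34 and 13.29 at 12 h. No groups overlapped, and the later rise of 1.53 ± 0.06 (2.89-fold, adjusted p = 1.32e-16) exceeded the early one of 0.86 ± 0.06. Values above 13 lie close to the table's highest value of 13.88, where array signals flatten, so the rise may be understated.

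Slc5a3, the myo-inositol transporter, ran the other way. It read 6.06, 5.76 and 5.79 in steady 300, 8.18, 8.32 and 8.22 at 3 h and 7.86, 7.81 and 7.91 at 12 h. Its early rise was 5.16-fold, and it had slipped by 0.38 ± 0.09 (adjusted p = 9.87e-04) while still 3.97-fold above steady 300. Slc6a6, the taurine transporter, was late: 10.71, 10.68 and 10.72, then 10.68, 10.58 and 10.65, then 11.28, 11.30 and 11.28. It had no early call and rose by 0.65 ± 0.06 (1.57-fold, adjusted p = 1.96e-09). Nfat5 read 8.71, 8.87 and 8.86, then 9.26, 9.33 and 9.70, then 9.46, 9.63 and 9.66, a held increase with a later change of 0.16 ± 0.11 (adjusted p = 0.270). Without replicate 3 at 3 h that change was 0.29 (adjusted p = 0.0292), and after cyclic loess it was −0.032. Slc14a2, which encodes urea transporters, also held (5.75, 5.87 and 5.50 at 3 h, 5.34, 5.65 and 5.73 at 12 h), and Aqp2 had no call in any of the comparisons.

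Some chaperone genes rose after 3 h. Of 23 heat shock proteins and co-chaperones 12 rose and 3 fell from 3 h to 12 h, with a median change of 0.23; after cyclic loess 7 rose and 7 fell with a median of 0.06, so the list's lean to higher values rests on the scaling. Hspa4l, the osmotic stress protein of the HSP110 family, read 6.85, 6.91 and 6.70, then 7.51, 7.31 and 7.62, then 9.87, 10.07 and 10.004. Its 12 h arrays stood more than 2 log2 units above those of 3 h (2.50 ± 0.10, 5.67-fold, adjusted p = 3.16e-17). Hsph1, another HSP110 member, rose by 1.03 ± 0.08 from 9.86, 9.79 and 9.66 to 10.77, 10.82 and 10.82. Hspa2, an HSP70, rose by 0.84 ± 0.09. Chordc1, a co-chaperone of HSP90, dipped from 8.93, 9.00 and 8.84 to 8.55, 8.67 and 8.29 and then rose past its start to 9.46, 9.53 and 9.60. The small heat shock proteins went down, Hspb8 by 0.81 and Hspb1 by 0.52, both new decreases.

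Heat shock factors bind the heat shock element. A match to it was found in 6 of 19 chaperone promoters with a window (31.6%), against 0.53% of measured genes and 0.74% of all windows. Hspa4l had none. By class, it was found in 1 of 67 increases that grew (1.49%) and 5 of 524 new increases (0.95%). Shown are Hsph1, which grew, at chr12:10427118-10427417, and Dnaja1, an HSP40 co-chaperone that rose anew by 0.26 ± 0.09, at chr5:60638154-60638453, both on the plus strand. Capitals mark the element.
Hsph1: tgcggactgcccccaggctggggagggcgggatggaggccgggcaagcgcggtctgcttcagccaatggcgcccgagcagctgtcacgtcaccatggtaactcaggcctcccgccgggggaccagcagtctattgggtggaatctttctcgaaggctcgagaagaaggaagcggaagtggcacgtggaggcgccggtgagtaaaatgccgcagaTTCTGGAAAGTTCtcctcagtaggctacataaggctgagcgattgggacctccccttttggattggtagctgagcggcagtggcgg
Dnaja1: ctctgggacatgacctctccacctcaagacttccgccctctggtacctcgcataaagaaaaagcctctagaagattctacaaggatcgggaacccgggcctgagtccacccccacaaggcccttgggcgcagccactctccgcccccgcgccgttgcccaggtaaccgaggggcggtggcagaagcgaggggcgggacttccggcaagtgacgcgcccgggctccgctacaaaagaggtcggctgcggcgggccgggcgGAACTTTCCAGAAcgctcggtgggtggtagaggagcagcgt

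Some genes of salt entry and cell volume rose as well. Of 23 ion transport and cell volume genes 12 rose and 3 fell, with a median change of 0.24, or 0.47 without replicate 3 at 3 h. The median level of these genes in steady 300 was 8.45, against 6.74 for all genes, and bright genes rose more often. The part of brightness in this rise was not tested. Slc12a2, the sodium-potassium-chloride cotransporter that brings salt into shrunken cells, read 9.53, 9.56 and 9.53, then 9.71, 9.65 and 9.85, then 10.46, 10.63 and 10.61. It grew by 0.83 ± 0.07 (1.77-fold, adjusted p = 5.95e-10). Stk39, the kinase SPAK that activates this cotransporter, had no early call and went from 7.63, 7.60 and 7.56 to 8.73, 8.92 and 8.77 (1.21 ± 0.08). Kcnj16, an inward-rectifier potassium channel subunit, went from 6.05, 5.703 and 5.64 to 7.86, 7.95 and 8.02 (2.15 ± 0.14), and its mean was 6.51 at 24 h. Fxyd4, a regulator of the sodium pump, was 1 of the 3 that fell and is described with the principal cell genes.

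The largest single increase was that of Prss35, a member of the serine protease family. Its arrays read 5.63, 5.66 and 5.62 in steady 300, 6.83, 7.31 and 7.25 at 3 h and 10.41, 10.54 and 10.42 at 12 h. The rise from 3 h was 3.33 ± 0.11 (10.02-fold, adjusted p = 1.70e-18), and 12 h stood 28.3-fold above steady 300. Slc38a4, a transporter of neutral amino acids, was the largest new increase: 9.53, 9.49 and 9.43, then 9.40, 9.45 and 9.51, then 11.64, 11.67 and 11.70. The first groups overlapped and the last stood 2.21 ± 0.09 above them (4.64-fold, adjusted p = 1.86e-16). It had declined to means of 11.22 at 24 h and 10.68 at 48 h, and steady 600 (9.36) was near steady 300. Slc4a11, a membrane transporter of the bicarbonate transporter family, grew from 7.31, 7.46 and 7.36 to 8.96, 9.22 and 9.23. P3h2, which hydroxylates collagen prolines, rose by 1.82 ± 0.08 from 3 h to 12 h and then stood 2.02 above steady 300.

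Genes of inflammation followed different courses. Cd69, a lectin-like activation receptor of leukocytes, read 7.70, 7.87 and 7.85, then 6.94, 7.04 and 6.77, then 9.47, 9.46 and 9.60 (2.59 ± 0.12, 6.04-fold, adjusted p = 1.18e-15). Outside inflammation Arrdc3, an arrestin-domain adaptor, turned over in the same way, with 9.70, 9.61 and 9.66, then 8.16, 8.25 and 7.56, then 10.27, 10.12 and 10.21. Ccl20, a chemokine, was new, going from 6.54, 6.86 and 6.44 to 8.17, 8.72 and 8.71 (1.92 ± 0.16). Ptgs2, the inducible cyclooxygenase, grew from 8.02, 8.12 and 8.12 to 9.21, 9.13 and 9.38, and its mean reached 10.03 at 24 h. Of 28 cytokine and NF-kB target genes 12 rose and 4 fell, and after cyclic loess 10 and 7. Il6, which read 7.45, 7.45 and 7.48 in steady 300, stayed low at 5.54, 5.77 and 5.73 and then 5.54, 6.12 and 5.91. Of 13 leukocyte markers 5 rose in the same interval (38.5%, against 23.1% of all genes tested) and 1 fell (7.7%, against 17.8%). Their mean level per array ran from 8.44 to 8.64 at 3 h and from 8.53 to 8.86 at 12 h. The part of leukocytes in the inflammatory genes was not tested.

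**Figure D4:**
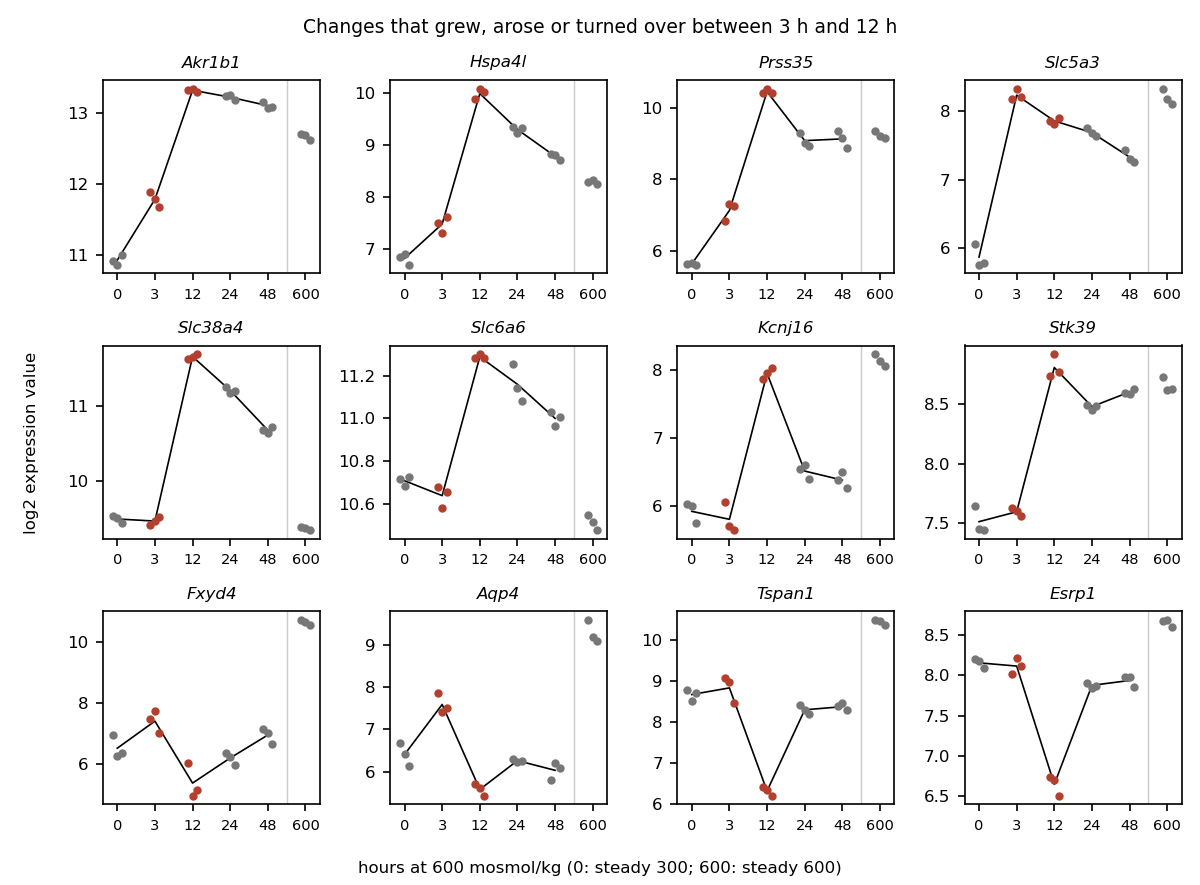
Log2 expression value (y axis, own range in each panel) of 12 genes by hours at 600 mosmol/kg, with 0 for steady 300 and 600 for steady 600; points are single arrays, red for 3 h and 12 h, and the line joins group means. Akr1b1, Hspa4l and Prss35 grow, Slc38a4, Slc6a6, Kcnj16 and Stk39 rise only after 3 h, Slc5a3 slips, Fxyd4 and Aqp4 turn over, and Tspan1 and Esrp1 drop at 12 h and are higher again at 24 h.

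The p53 target Mdm2, a ubiquitin ligase that restrains p53, also turned over, from 9.67, 9.67 and 9.68 to 8.90, 8.78 and 8.98 and then to 10.23, 10.31 and 10.49 (1.46 ± 0.12, adjusted p = 1.63e-10). Ccng1 and Aen followed the same course with rises of 0.71 and 0.76, while Gadd45b, a stress sensor, fell by 0.66 and faded in part. In the list of 20 p53 target and growth arrest genes 10 rose and 4 fell, and after cyclic loess 6 and 8, so no direction of the list is given.

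The 6 largest decreases without overlap were of Tmem45b, Tspan1, Ly6c, Degs2, Vtcn1 and Aldh1a3. Tmem45b, a transmembrane protein, read 8.32, 8.09 and 8.35, then 8.07, 8.14 and 8.41, then 5.701, 5.67 and 5.37. Only the 12 h arrays stood apart (−2.63 ± 0.11, 6.18-fold lower, adjusted p = 2.89e-16). Tspan1, a tetraspanin, fell by 2.52 ± 0.11 from 9.08, 8.97 and 8.47 to 6.42, 6.34 and 6.21, and its mean at 24 h was 8.31. Ly6c, a surface protein held by a lipid anchor, first rose and then turned over, from 6.58, 6.17 and 6.03 to 7.31, 7.46 and 7.48 and then to 5.04, 4.98 and 4.99 (−2.41 ± 0.17). Degs2, a sphingolipid desaturase, fell by 2.25 ± 0.14 from 8.13, 8.14 and 8.05 to 5.81, 6.04 and 5.72. Vtcn1, an inhibitory ligand of T cells, and Aldh1a3, which makes retinoic acid, had begun to fall by 3 h and then fell by 2.22 ± 0.07 and 2.07 ± 0.08. In all 6 the mean at 24 h was above that at 12 h.

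Of 16 epithelial markers 7 fell and 3 rose, with a median change of −0.17, or −0.36 after cyclic loess. Esrp1, a splicing regulator of epithelial cells, read 8.19, 8.17 and 8.09, then 8.01, 8.21 and 8.11, then 6.74, 6.70 and 6.51 (−1.46 ± 0.08, 2.75-fold lower, adjusted p = 5.18e-14). The tight junction genes Cldn8 and Tjp3 fell by 1.20 ± 0.15 and 0.64 ± 0.07, both new decreases. Cdh1 fell by 0.62 ± 0.09, to 10.05, 10.22 and 10.21. The losses were not shared by all markers: the tight junction genes Ocln and Cldn3 rose by 0.56 and 0.39 from an early decrease, and Epcam changed by 0.06 without a call.

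Principal cell genes fell in 11 of 24 and rose in 2, with a median change of −0.29 and the same counts after cyclic loess. Fxyd4 and the water channel gene Aqp4 first rose and then dropped below their start. Aqp4 read 6.68, 6.42 and 6.13, then 7.85, 7.41 and 7.51, then 5.71, 5.61 and 5.44. Each group was clear of the others, and the fall was large (−2.00 ± 0.14, adjusted p = 5.45e-12). Fxyd4 read 6.94, 6.26 and 6.34, then 7.47, 7.73 and 7.01, then 6.02, 4.95 and 5.13 (−2.04 ± 0.21). Both were far higher in steady 600, at means of 9.28 and 10.65. Gata3, a transcription factor of the collecting duct, was a new decrease of 1.05 ± 0.12, from 8.88, 8.97 and 9.61 to 7.89, 8.28 and 8.13. In steady 300 it read 9.40, 9.38 and 9.34, so replicates 1 and 2 at 3 h already lay below and replicate 3 above. Whether the lack of an early call rests on replicate 3 was not tested. Among EGF receptor ligands, Hbegf turned over from 10.77, 10.73 and 11.15 to 9.80, 9.89 and 9.79 (−1.05 ± 0.08), below the 10.31 of all arrays in steady 300.

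Many genes of energy metabolism fell after 3 h. Of 30 glycolysis and hypoxia-inducible genes 17 fell and 1 rose from 3 h to 12 h, with a median change of −0.26, and 22 fell and 1 rose after cyclic loess. Of the 30, 10 were new decreases. Pdk1, a kinase that inhibits pyruvate dehydrogenase, turned over. It went from 7.25, 7.25 and 7.24 to 7.99, 8.29 and 7.94 and then to 6.36, 6.26 and 6.21 (−1.79 ± 0.10, 3.47-fold lower, adjusted p = 3.55e-14). Slc2a1, a glucose transporter, fell by 0.58 ± 0.06 to 10.04, 9.97 and 9.998, and Pfkl, a phosphofructokinase, returned from 9.95, 10.05 and 9.72 to 9.04, 9.11 and 8.93. The mitophagy receptor Bnip3 and the lactate exporter Slc16a3 fell by 1.18 and 0.95. In the same list 5 genes held their early rise, among them Vegfa and Ndrg1, with later changes of −0.07 and −0.03. Of 25 oxidative phosphorylation genes 9 fell and 3 rose (median −0.17), and 17 fell and 0 rose after cyclic loess. Without replicate 1, 2 or 3 at 3 h, 6, 6 and 13 of them fell, with medians of −0.12, −0.09 and −0.29.

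Interferon-stimulated genes fell in 14 of 27 and rose in 5, with a median change of −0.39. The immunoproteasome genes Psmb8 and Psmb9 had no early call and fell by 0.91 ± 0.08 and 1.09 ± 0.10. Isg15, a ubiquitin-like modifier, fell from 8.05, 7.72 and 7.61 to 6.76, 6.67 and 6.37 (−1.19 ± 0.11, adjusted p = 1.2e-09). Irf1 moved up in the same interval, so the list did not move as a unit.

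Cholesterol synthesis genes fell in 9 of 19 and rose in 2, with a median change of −0.19, and in 15 against 1 after cyclic loess. Against steady 300, 15 were lower at 12 h and 0 higher. Srebf2, the transcription factor that drives the pathway, was a new decrease, from 9.19, 9.25 and 9.69 to 8.55, 8.71 and 8.62 (−0.75 ± 0.09). Its partner in feedback Insig1 fell by 0.59 ± 0.10, and the sterol desaturase gene Sc5d rose by 0.34 ± 0.06.

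Marker genes of cell types other than the duct epithelium moved in the same interval. Of 9 endothelial markers 8 fell and 0 rose, with a median change of −0.56, or 6 and −0.39 without replicate 3 at 3 h. Their mean level per array ran from 7.51 to 7.83 at 3 h and from 7.0 to 7.05 at 12 h. Plvap, the diaphragm protein of capillaries, read 7.52, 7.85 and 7.92 and then 6.61, 6.52 and 6.10. Of 15 fibroblast markers 8 fell (53.3%, against 17.8% of all genes tested) and 0 rose (median −0.27). Without replicate 3 at 3 h 6 fell, and without replicate 3 at 12 h 5 fell. Their mean level went from between 8.25 and 8.40 to between 7.96 and 8.0. Their part in the late decreases was not tested.

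**Figure D5:**
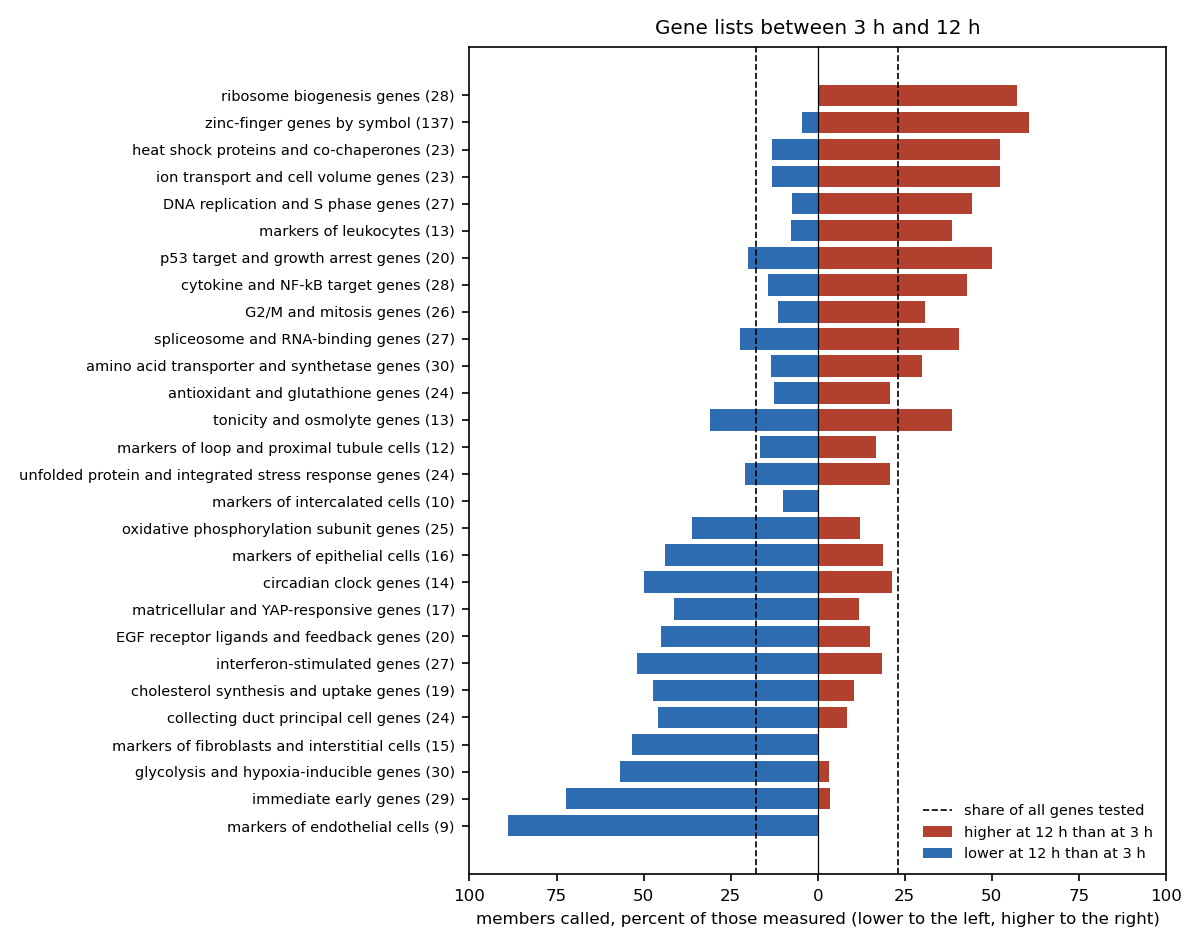
Percent of the measured members of 28 gene lists (number in brackets) called higher (red, to the right) or lower (blue, to the left) at 12 h than at 3 h; the dashed lines mark the 23.1% and 17.8% of all genes tested. Ribosome biogenesis and zinc-finger genes lie furthest to the higher side and endothelial markers and immediate early genes furthest to the lower side.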

How the data were processed

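The deposited log2 values came from Affymetrix Rat Gene 1.0 ST arrays, summarised by RMA (robust multi-array averaging) per the submitters' processing notes. For the software version and the genome build nothing is stated here. RMA scales arrays to each other, so global shifts in RNA content are not seen. Of 29170 probe sets, 15310 had 1 gene symbol in the platform annotation, 323 several and 13537 none. Each gene was read from its brightest probe set on average, giving 14506 genes. Groups were taken from the titles and fitted jointly in limma 3.58.1 (R 4.3.3), with a mean for each of the groups of all 30 arrays and moderated variances from eBayes. Adjustment was by Benjamini-Hochberg over all genes, and calls were made at 0.05. Precision is limited by the 3 arrays per group. No scan batch was used here, so a batch that follows the time points cannot be told apart from time.

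The members, the 28 lists and the rules were chosen with earlier results of these data known. Genes were named by size of change without overlap (6 in each direction, 4 in each class and direction), by size of the early change for held genes (4 in each direction), by adjusted p within lists (up to 4), or always (Nfat5, Akr1b1, Slc5a3, Slc6a6, Slc14a2, Aqp2, Egr1 and Hspa4l). Other list members named were chosen after their values were seen. Same-numbered replicates at 3 h and 12 h had correlations of their deviations from 0.009 to 0.22. Those of unlike number ran from −0.232 to 0.142. The ranges overlapped, and the numbers were not taken to pair the samples. Alternatives were quantile, median and cyclic loess scaling, leaving out dim genes (the lowest 30% by mean), the mean of probe sets, trend and robust eBayes, the 9 compared arrays alone, a replicate block, a 2-fold minimum, and leaving out each array.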

Additional observations from a re-analysis of the deposited data

Results flagged for a closer look

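Probe sets without a single gene symbol lie outside the gene comparisons. Among these 13860 probe sets, limma called 1637 higher and 1117 lower at 12 h than at 3 h. At least 2-fold, 186 were higher and 58 lower. The largest increase was that of probe set 10813563, from a mean of 6.44 to 9.64 (log2 change 3.19 ± 0.18, adjusted p = 8.09e-13). The largest decrease was that of probe set 10700065, from 9.85 to 6.62 (−3.22 ± 0.91, adjusted p = 0.00774). No gene is named for them here.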

How the results depend on the processing

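Scaling moved some class counts by over 1.5 times. Faded decreases numbered 1707 as deposited, 1069 after quantile normalization, 1078 after median centring and 1005 after cyclic loess. New increases numbered 612 as deposited, 940 after quantile normalization and 1196 after median centring. After quantile normalization, median centring and cyclic loess in turn, held increases (370 as deposited) numbered 752, 1847 and 604, increases that grew (82) 178, 245 and 148, partly faded increases (77) 160, 223 and 155, and increases that turned over (135) 262, 202 and 295. In the same order, held decreases (1102) numbered 612, 475 and 687, decreases that grew (476) 299, 251 and 334, and partly faded decreases (304) 120, 91 and 125. Of the faded decreases under cyclic loess, 903 were also faded decreases as deposited (89.9% of the former, 52.9% of the latter). With a 2-fold minimum, 200 genes rose, 164 fell, 15 increases and 71 decreases had faded, and 36 increases and 84 decreases were new; a stricter threshold lowers counts by construction. Leaving out each array in turn gave 2958 to 3576 rising genes, 2266 to 2563 falling genes, 484 to 622 faded increases, 1430 to 1714 faded decreases, 510 to 657 new increases and 849 to 1075 new decreases. With the replicate number as a block over the 9 arrays, 2791 rose, 2091 fell, 418 increases and 1491 decreases had faded, and 496 increases and 878 decreases were new; the 9 arrays without the block gave 2856 rising and 2117 falling genes. Under the alternatives the change from 3 h to 12 h of 146 named genes gave 2480 values. Of these, 2452 kept direction and side of the threshold. In 6 genes without a call in the values reported, 15 values changed sign, and the cause was not tested. Klf4 was −0.086 after quantile normalization, −0.096 after cyclic loess and −0.287 with the mean of its probe sets, the last with a call. Hexim1 was −0.057 and −0.155, and Rab20 −0.016 and −0.088, after quantile normalization and cyclic loess, and Nfat5 was −0.032 after cyclic loess. Leaving out each array gave −0.101 to 0.082 for Klf4, −0.03 to 0.104 for Hexim1, −0.062 to 0.12 for Rab20, −0.008 to 0.357 for Kcne3 and −0.229 to 0.027 for Rtp4. The call of Aqp1 (0.38, adjusted p = 0.0171) was lost after quantile normalization (0.24), cyclic loess (0.19), without replicate 3 at 3 h (0.18) or at 12 h (0.34), and at 0.38 with the replicate block or the 9 arrays alone (adjusted p = 0.0724 and 0.0775), its adjusted p ranging from 0.000629 to 0.311. Other calls that changed were of Cox5a, Lrp2, Lrp1, Kcne3 and Nfat5. With 3 arrays per group, dim genes and the highest signals limit what can be resolved.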

Other observations

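Clock genes also moved between 3 h and 12 h: of 14 measured, 7 fell and 3 rose, with a median change of −0.12. Per3, a repressor of the clock, read 6.004, 5.92 and 6.45 at 3 h and 5.04, 5.21 and 4.99 at 12 h, a fall of 1.04 ± 0.10 (adjusted p = 2.9e-09). Cry2, another repressor, fell by 0.65 ± 0.08, and Clock, an activator, rose by 0.75 ± 0.10. The means of Per3 and Cry2 at 24 h (6.23 and 7.44) stood above those at 12 h. The hours of harvest are not known, so time of day and time at 600 mosmol/kg cannot be told apart.

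Among RNA-binding genes, Cirbp, a cold-inducible RNA-binding protein, went on falling, from 8.63, 8.64 and 8.42 at 3 h to 8.04, 7.88 and 8.04 at 12 h (−0.57 ± 0.07). The matricellular and YAP-responsive gene Ankrd1 read 11.50, 11.69 and 11.63 in steady 300, 10.76, 10.74 and 10.54 at 3 h and 9.28, 8.75 and 9.00 at 12 h. It fell by 1.67 ± 0.11 from 3 h to 12 h and stood 6.04-fold below steady 300. The YAP-responsive gene Ccn1 fell by 0.64 ± 0.08 without an early call. The cystine transporter gene Slc7a11 turned over, from 6.55, 6.66 and 6.77 to 5.91, 6.19 and 6.34 and then to 7.21, 7.49 and 7.21 (1.15 ± 0.12, adjusted p = 1.3e-08).

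Lists not described above had these counts of rising and falling genes from 3 h to 12 h, as deposited and after cyclic loess. Amino acid transporter and synthetase genes gave 9 and 4 of 30, then 5 and 14. Unfolded protein and integrated stress response genes gave 5 and 5 of 24, then 1 and 11, and 2 rose without replicate 2 at 12 h. Antioxidant and glutathione genes gave 5 and 3 of 24, then 4 and 9. Spliceosome and RNA-binding genes gave 11 and 6 of 27, then 7 and 8, and 7 rose without replicate 3 at 12 h. Matricellular and YAP-responsive genes gave 2 and 7 of 17, then 0 and 9, and 4 rose without replicate 3 at 3 h. EGF receptor ligands and feedback genes gave 3 and 9 of 20, with the same counts after cyclic loess, and 5 rose without replicate 3 at 3 h. Intercalated cell markers gave 0 and 1 of 10, then 0 and 2. Loop and proximal tubule markers gave 2 and 2 of 12, then 1 and 2.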
